A study of Mus musculus with 5 samples.

Results

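In mouse primary acinar cells 9 genes were followed, chosen by symbol as the zymogen granule proteins that are grouped apart from the bulk digestive enzymes: Sycn, Gp2, Zg16, Dmbt1, Cuzd1, Spink3, Serpini2, Klk1 and Erp27. All 9 of 9 symbols were found among the 23284 gene symbols of each count table. The name of the group does not hold for every member. Klk1 encodes a serine protease and Erp27 a protein of the endoplasmic reticulum, and neither is a structural granule component.

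Knockout acinar cells came from Arid1afl/fl;p48-Cre mice (3 libraries) and control cells from p48-Cre mice (2 libraries), all C57BL/6 and aged 8 weeks. Both groups carry p48-Cre, a Cre recombinase driven from the Ptf1a (p48) locus in the developing pancreas, so the groups differ by the floxed Arid1a alleles. Arid1a encodes a subunit of the SWI/SNF chromatin remodelling complex. Minced pancreas was digested and filtered, the cells were left to recover in serum-containing medium, and poly(A)-selected RNA was sequenced without strand marking. The labels do not say which animal each library came from, so a p-value here reflects only how these libraries differ, and that may be technical.

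Depth differed between the groups. Without Rn45s, a ribosomal RNA precursor, and Lars2, the tables held 3155357, 3568906 and 3345121 counts in knockout libraries 1, 2 and 3, against 67514 and 72006 in control libraries 1 and 2. Rn45s took 8.5%, 10.9% and 6.78% of all counts in the knockout libraries, against 72.6% and 82.2% in the controls. Genotype, depth and the Rn45s share therefore cannot be told apart. Arid1a had 44, 121 and 42 counts in knockout libraries 1, 2 and 3, against 0 and 3 in the controls, too few in the controls to check the labels by this gene. The libraries held acinar RNA: the listed digestive enzymes made up 71.0%, 61.7% and 79.8% of the counts in the knockouts and 59.2% and 65.5% in the controls. Of 4 listed acinar regulators, Ptf1a and Nr5a2 had no count in either control. Bhlha15 had 0 and 17 counts and Rbpjl 10 and 0 in control libraries 1 and 2. In the knockouts Ptf1a reached at most 26.9 CPM and Nr5a2 10.9 CPM, levels worth few counts at the controls' depth.

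Zymogen granules store the inactive digestive enzymes of the acinar cell until a secretagogue such as cholecystokinin makes the granule membrane fuse with the apical plasma membrane. Beside the enzymes, granules carry proteins of the membrane and of the matrix on its inner face, and inhibitors that hold trypsin in check. Sycn (syncollin), Gp2, Zg16, Dmbt1 and Cuzd1 belong to the membrane and matrix. Spink3, the mouse pancreatic trypsin inhibitor now named Spink1, belongs to the inhibitors. Serpini2, a pancreatic serpin, is listed with Spink3 below, and no action on trypsin is meant by that.

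The start regions of 5 of the 9 members were held in the promoter table from RefSeq (build GRCm38.p6), those of Sycn, Gp2, Cuzd1, Serpini2 and Klk1. Sycn is shown as the one member past the test below, Gp2 and Klk1 as members whose ratio stayed within 1.76-fold over the 5 libraries, and Serpini2 as the rarest member. Each line gives the 250 bases before the transcription start, 5′ to 3′ on the gene's strand, with capitals for matches on either strand. The motifs searched were the TATA box TATAAA, the PTF1 E-box CACCTG with its partner box TTTCCC, the MIST1 E-boxes CAGCTG and CATATG, and the NR5A2 motif AAGGTCA, all factors of the acinar cell except the first.
Sycn: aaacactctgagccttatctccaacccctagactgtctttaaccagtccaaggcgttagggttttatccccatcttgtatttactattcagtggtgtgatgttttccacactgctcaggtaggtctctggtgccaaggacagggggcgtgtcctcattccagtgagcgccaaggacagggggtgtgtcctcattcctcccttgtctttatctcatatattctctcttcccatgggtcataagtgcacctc
Gp2: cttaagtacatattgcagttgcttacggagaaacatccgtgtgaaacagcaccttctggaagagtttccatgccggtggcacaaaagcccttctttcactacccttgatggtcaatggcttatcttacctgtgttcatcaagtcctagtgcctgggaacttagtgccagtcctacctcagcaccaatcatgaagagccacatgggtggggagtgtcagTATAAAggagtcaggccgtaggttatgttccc
Klk1: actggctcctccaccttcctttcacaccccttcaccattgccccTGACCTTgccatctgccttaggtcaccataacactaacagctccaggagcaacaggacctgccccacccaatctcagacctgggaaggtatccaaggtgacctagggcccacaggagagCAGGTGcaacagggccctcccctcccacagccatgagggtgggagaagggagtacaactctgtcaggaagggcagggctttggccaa
Serpini2: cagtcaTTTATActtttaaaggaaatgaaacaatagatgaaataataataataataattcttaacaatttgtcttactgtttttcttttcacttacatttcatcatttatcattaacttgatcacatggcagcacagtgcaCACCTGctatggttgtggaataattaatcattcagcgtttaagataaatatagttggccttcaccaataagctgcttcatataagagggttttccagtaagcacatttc

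The Sycn window, at chr7:28540635-28540884 on the plus strand, held no match to any of the 6 motifs. The Gp2 window, at chr7:119459273-119459522 on the minus strand, held TATAAA starting 32 bases before the transcription start. The Klk1 window, at chr7:44225110-44225359 on the plus strand, held CACCTG and AAGGTCA, both on the reverse strand. The Serpini2 window, at chr3:75270079-75270328 on the minus strand, held CACCTG, and TATAAA on the reverse strand 244 bases before the start. Cuzd1 held 1 match, to CAGCTG. Over all 32851 promoter windows of the same length, 12.4% held TATAAA, 17.2% CACCTG, 21.9% TTTCCC, 13.0% CAGCTG, 3.46% CATATG and 4.08% AAGGTCA. These matches are letters in a window and not sites of binding.

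Levels were compared on 2 scales: as CPM, with each library scaled to the same total once Rn45s and Lars2 were left out, and as counts per 1000 counts of Ctrb1, the chymotrypsinogen transcript, in the same library. Of the 9 members, 1 was called lower and 0 higher in the knockouts on each scale, at an adjusted p under 0.05 from edgeR's quasi-likelihood test over all genes. The called member was Sycn on both scales. Of all genes tested per library total, 1.6% were called lower and 0.193% higher, and relative to Ctrb1 6.41% were called lower and 0.205% higher. The members' median log2 fold change, knockout over control, was 0.51 per library total beside 0.22 over all tested genes, and 0.02 relative to Ctrb1 beside -0.34 over all tested genes. The other tools called no member per library total: DESeq2 and limma-voom each called 0 of 9, with 0 and 1 lower at an unadjusted p under 0.05. Under library totals that kept Rn45s and Lars2, edgeR called 5 other members higher: Klk1 and Gp2 at a log2 fold change of 3.63, Dmbt1 at 3.50, Spink3 at 3.23 and Zg16 at 2.65. The median of all tested genes was then 2.73. Of the tested genes, 2775 (33.5%) had no count in either control. Among the 133 genes with at least 10 counts in every library, 12 (9.02%) were called lower and 2 higher per library total, and the median log2 fold change was -0.92. Relative to Ctrb1, 25 of 132 such genes (18.9%) were called lower and 1 higher, with a median of -1.55.

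Taken as a sum, the 9 members made up 5.05%, 4.38% and 5.89% of the counts in knockout libraries 1, 2 and 3, against 7.03% and 4.53% in control libraries 1 and 2. The ranges overlapped. Without Sycn, the sum was 44632, 39354 and 39271 CPM in the knockouts, against 24676 and 24026 CPM in the controls, and every knockout library lay above both controls. Of all single genes tested, 35.6% also had every knockout above both controls in CPM, a share that includes genes with no control count. Sycn was left out of the sum with its own values known. For each 1000 counts of the listed digestive enzymes there were 71.1, 71.0 and 73.8 member counts in the knockouts, against 119 and 69.1 in the controls. Control 1 stood above the other 4 libraries, which lay close together.

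**Figure D1:**
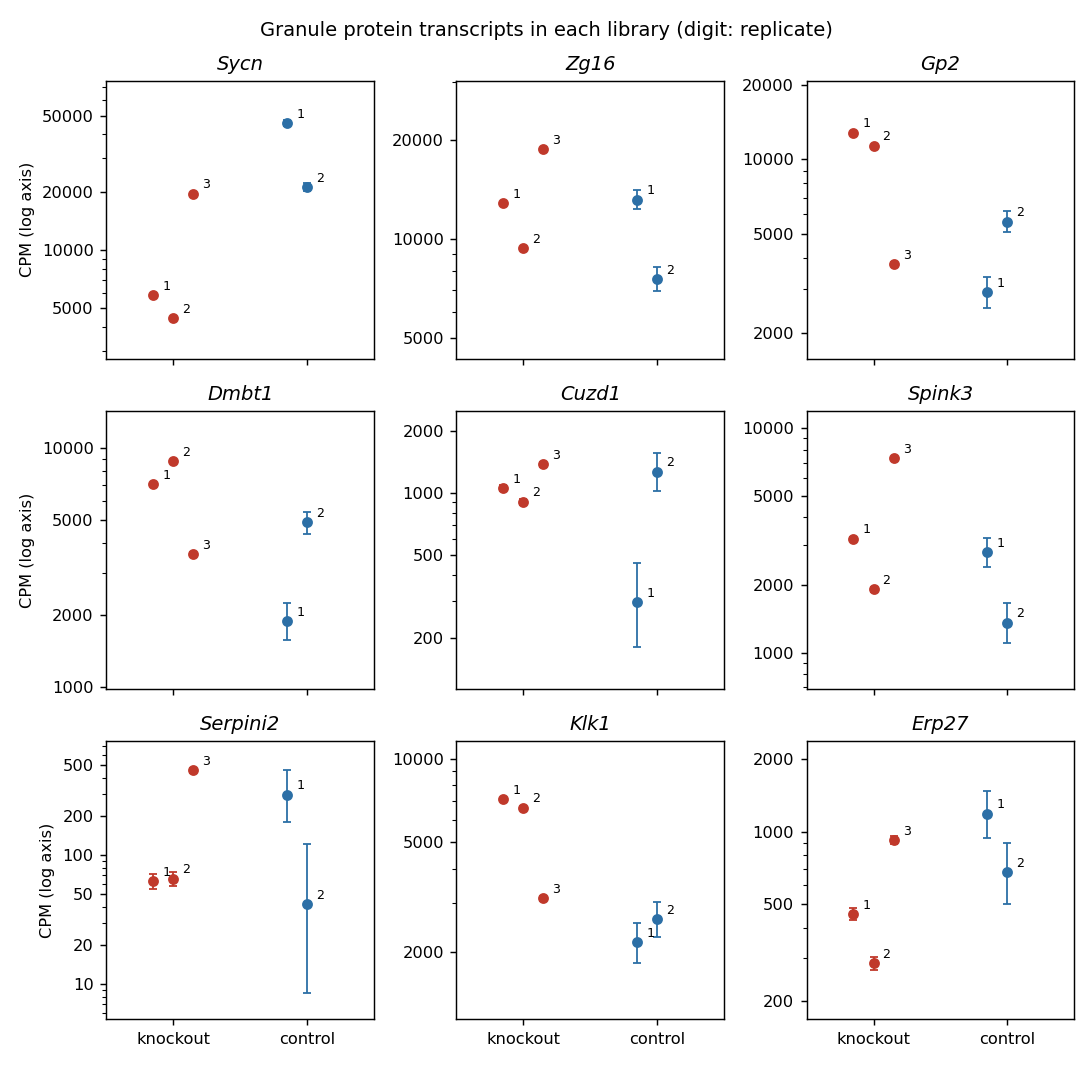
Level of each of the 9 members in every library, in CPM on a log axis, with knockout libraries on the left and controls on the right of each panel. Bars are 95% Poisson intervals and cover counting error only. Sycn lies lower in all 3 knockouts than in both controls and Klk1 higher, and the groups overlap for the other 7 members.

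Sycn, a small protein on the inner face of the granule membrane, had 5832, 4440.0 and 19649.5 CPM in knockout libraries 1, 2 and 3, against 45620.2 and 21234 CPM in control libraries 1 and 2. The groups did not overlap, but knockout 3 lay just under control 2. The knockouts averaged 9974 ± 8408 CPM (SD, n = 3) and the controls 33427 ± 17243 CPM (SD, n = 2). Sycn fell by 1.74 on the log2 scale (SE 0.50, edgeR adjusted p = 0.0326). Each SE given with an edgeR value was derived from the test's F statistic. For 1000 Ctrb1 counts, Sycn had 25.0, 20.8 and 118 counts in the knockouts, against 319.7 and 153 in the controls. The order of the libraries was the same, and the log2 fold change was -2.11 ± 0.58 (SE, edgeR adjusted p = 0.0106). In CPM, Ctrb1 itself was higher in every knockout than in both controls, which lowers the knockouts on this scale. Relative to Cpb1 the log2 fold change of Sycn was -2.75, and relative to Pnlip, which was lower in every knockout, -0.91. Neither was called. Groups that did not overlap, with the knockouts lower, were found for 11.2% of all tested genes in CPM and 14.5% relative to Ctrb1. The 33.5% of tested genes with no count in either control cannot lie lower in the knockouts. Among genes that could, the shares were therefore larger. An exact two-sided permutation test on the log2 CPM of 3 against 2 libraries gave p = 0.2 for Sycn, the smallest p that this design allows.

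The call for Sycn depended on the scaling and on single libraries. Under TMM factors its log2 fold change was 0.75 with all genes kept and 0.81 without Rn45s and Lars2, while the median over all genes was then 2.05 and 1.93. Under RLE factors it was 0.45 beside a median of 1.49, and under library totals with Rn45s and Lars2 it was 0.48 beside a median of 2.73. Sycn lay below the median of all genes under every scaling tried, and its direction against zero turned under these 4. A scaling moves Sycn and the median together, so its place below the median is not separate support from each scaling. Among the 133 genes with at least 10 counts in every library, the median per library total was -0.92, beside -1.74 for Sycn. DESeq2 gave the same fold change per library total with a standard error of 1.04 and an adjusted p of 0.243. Over all 16 alternatives the adjusted p ranged from 0.000578 to 0.866. The call was lost without knockout 1 (-1.47, edgeR adjusted p = 0.866), without knockout 2 (-1.39, 0.165) or without control 1 (-1.09, 0.587). It was kept without knockout 3 (-2.70) and without control 2 (-2.19). Relative to Ctrb1 all 13 alternatives lay below 0, from -3.37 to -0.91, and 6 of them kept the call.

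**Figure D2:**
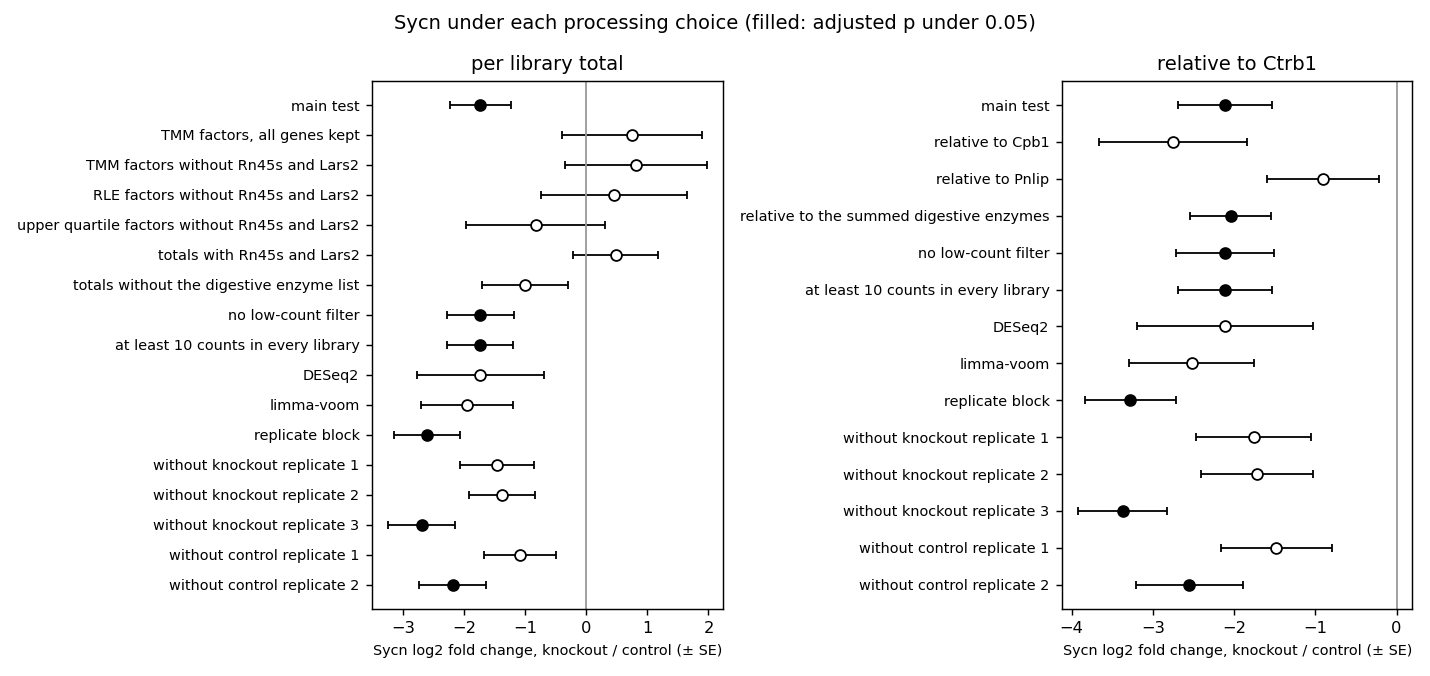
Log2 fold change of Sycn, knockout over control, under each setting of the analysis on both scales. Bars are standard errors, derived from the F statistic for edgeR, and filled points passed an adjusted p of 0.05. The values per library total run from -2.70 without knockout 3 to 0.81 under TMM factors without Rn45s and Lars2, and all values relative to Ctrb1 or another enzyme lie below 0.

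Gp2, the main glycoprotein of the granule membrane, held there by a lipid (GPI) anchor, had 12818, 11346 and 3784 CPM in knockout libraries 1, 2 and 3, against 2903 and 5611 CPM in the controls. Knockout libraries 1 and 2 were the highest, and knockout 3 lay between the controls. The log2 fold change was 1.13 ± 0.61 (SE, edgeR adjusted p = 0.432), and relative to Ctrb1 it was 0.52 (adjusted p = 0.644).

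Dmbt1, a scavenger-receptor glycoprotein known in the mouse pancreas as muclin, had 7058, 8804 and 3589 CPM in the knockouts, against 1881 and 4875 CPM in the controls. Its libraries fell in the same pattern, with knockout 3 between the controls. The log2 fold change was 0.94 ± 0.64 (SE, edgeR adjusted p = 0.552), and 0.36 relative to Ctrb1 (adjusted p = 0.734).

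Zg16, a lectin of the granule matrix, had 12839, 9394 and 18699 CPM in knockout libraries 1, 2 and 3, against 13153 and 7569 CPM in the controls. The groups overlapped and averaged 13644 ± 4704 CPM (SD, n = 3) in the knockouts and 10361 ± 3948 CPM (SD, n = 2) in the controls. Its log2 fold change was 0.40 ± 0.55 (SE, edgeR adjusted p = 0.679) per library total and -0.05 relative to Ctrb1 (adjusted p = 0.96).

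Cuzd1, a membrane protein with CUB and zona pellucida domains, had 1052, 905 and 1377 CPM in the knockouts, against 296 and 1264 CPM in the controls. The 3 knockouts lay near control 2, and control 1 stood apart at 20 counts. The log2 fold change was 0.51 ± 0.85 (SE, edgeR adjusted p = 0.739), and 0.02 relative to Ctrb1 (adjusted p = 0.987).

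Among the inhibitors, Spink3 had 3218, 1912 and 7324 CPM in knockout libraries 1, 2 and 3, against 2799 and 1361 CPM in the controls. Knockout 3 was the highest and the other libraries overlapped between groups. Its log2 fold change was 1.00 ± 0.70 (SE, edgeR adjusted p = 0.556), and 0.60 relative to Ctrb1 (adjusted p = 0.637). Serpini2 was the rarest member, with 62.8, 65.6 and 456 CPM in the knockouts, against 296 and 41.7 CPM in the controls. The control values rested on 20 and 3 counts, and knockout 3 and control 1 were both several times above the other 3 libraries. Its log2 fold change was 0.21 ± 1.10 (SE, edgeR adjusted p = 0.927), and the ratio of pooled shares, knockout over control, was 1.18 (exact 95% interval from 0.783 to 1.86, by counting error alone).

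Klk1, tissue kallikrein, had 7129, 6640.1 and 3118 CPM in knockout libraries 1, 2 and 3, against 2163 and 2625 CPM in the controls. The groups did not overlap, with the knockouts higher, as for 35.6% of all tested genes. That share includes genes with no count in either control, which were 33.5% of those tested, while Klk1 had 146 and 189 control counts. The log2 fold change was 1.23 ± 0.67 (SE, edgeR adjusted p = 0.438), and the exact permutation test again gave its smallest p of 0.2. Counted for each 1000 Ctrb1 counts, Klk1 stood at 30.6, 31.1 and 18.8 in the knockouts, against 15.2 and 18.9 in the controls. Knockout 3 then lay within the controls' range. Klk1 is the member whose reads are least certain: 28.4% of the 50-base words of its GENCODE transcript also occur in other genes, chiefly of the Klk1b family, and none of the words of the other 8 members does.

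The close relatives of Klk1 were counted along with it. Of the summed Klk1 and Klk1b counts, the 14 Klk1b genes took 7.25%, 6.55% and 2.93% in knockout libraries 1, 2 and 3. In control 1 they took 1.35% (exact 95% interval 0.164% to 4.8%), and in control 2 none of 189 counts (exact 95% upper limit 1.93%). Klk1b24 had 595, 520 and 34 counts in the knockouts and Klk1b5 had 289, 354 and 105. Klk1b24 had none in the controls and Klk1b5 had 2 and 0. Klk1b11 (388, 261 and 13 counts in the knockouts) and Klk1b3 (215, 289 and 102) had none in the controls. At the controls' depth 3 counts, the floor used here, stood for 44.4 and 41.7 CPM, so levels under these were poorly measured in the controls.

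Erp27, a non-catalytic member of the protein disulfide isomerase family, had 456, 286 and 923 CPM in the knockouts, against 1185 and 680.5 CPM in the controls. Knockout 3 lay between the controls, and knockout libraries 1 and 2 below both. The log2 fold change was -0.75 ± 0.88 (SE, edgeR adjusted p = 0.634), and -1.16 ± 0.83 relative to Ctrb1 (adjusted p = 0.518). Like Sycn, its direction turned under the TMM, RLE and full-total scalings, and under upper quartile factors its log2 fold change was 0.01.

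**Figure D3:**
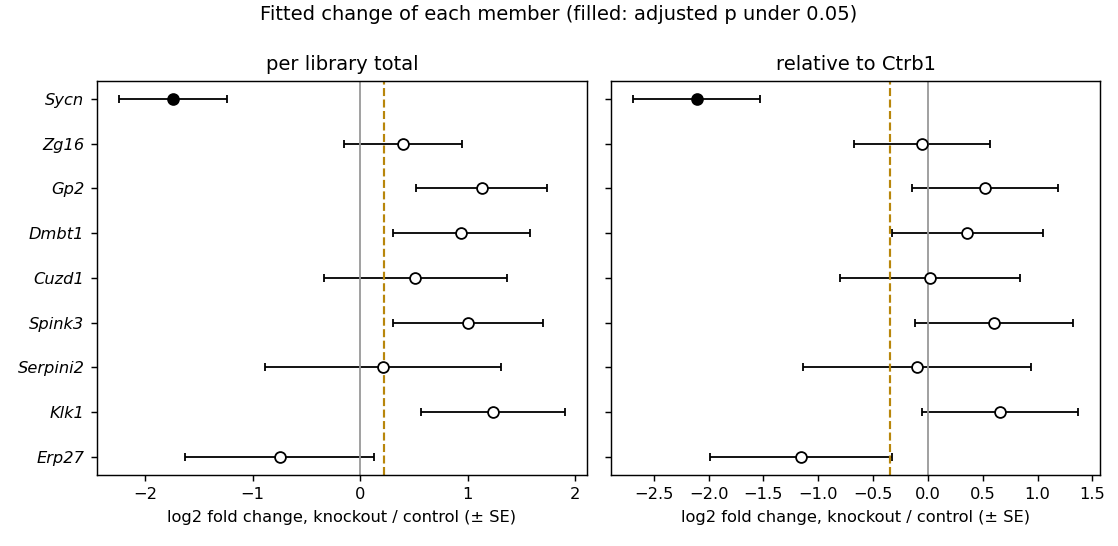
Log2 fold change, knockout over control, of each member per library total and relative to Ctrb1, with standard errors derived from edgeR's F statistic. Filled points passed an adjusted p of 0.05 and dashed lines mark the median of all tested genes. Sycn is the only filled point on either scale, at -1.74 and -2.11.

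Per kilobase of transcript, the levels of different genes can be set beside each other. Sycn, on a transcript of 556 bases, had 10489.8, 7986 and 35341 CPM per kilobase in knockout libraries 1, 2 and 3, against 82051 and 38191 in the controls. Zg16 had 20187, 14771 and 29402 CPM per kilobase in the knockouts, against 20681 and 11901 in the controls. Zg16 thus stood above Sycn in knockout libraries 1 and 2, and Sycn above Zg16 in knockout 3 and in both controls. Dmbt1, with the longest transcript of 6243 bases, had 1130.5, 1410.2 and 575 CPM per kilobase in the knockouts, against 301 and 781 in the controls.

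The makeup of the group within a library does not depend on the library total. Sycn took 11.6%, 10.1% and 33.3% of the members' summed counts in knockout libraries 1, 2 and 3, against 64.9% and 46.9% in the controls. Gp2 took 25.4%, 25.9% and 6.42% in the knockouts, against 4.13% and 12.4% in the controls. Zg16 took 25.4%, 21.5% and 31.7% in the knockouts, against 18.7% and 16.7% in the controls. Sycn was thus the most counted member in both controls and in knockout 3, by a small margin over Zg16 there, and not in knockout libraries 1 and 2.

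**Figure D4:**
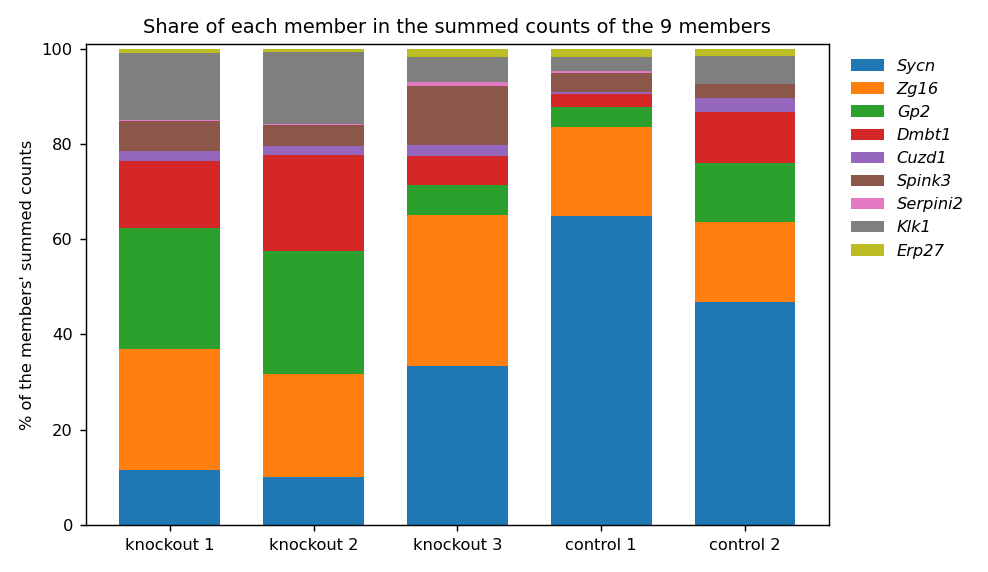
Share of each member in the summed counts of the 9 members, in percent, with the 3 knockout libraries left of the 2 controls. Sycn takes 10.1% to 33.3% in the knockouts and 46.9% to 64.9% in the controls.

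Of the 36 ratios between pairs of members, 8 did not overlap between the groups, and 6 of these were among the 8 ratios that involve Sycn. The other 2 were Zg16 over Erp27 and Spink3 over Erp27. Among ratios of any genes with at least 10 counts in every library, 59.9% did not overlap. The steadiest ratio was that of Gp2 to Dmbt1, whose highest library was 1.72 times its lowest, followed by Gp2 to Klk1 at 1.76. The widest was Sycn to Dmbt1 at 48.1. Gp2, Dmbt1 and Klk1 were all highest in knockout libraries 1 and 2 and lowest in control 1.

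Genes most like each member were sought among 132 candidates with at least 10 counts in every library, by the root mean square difference of centred log2 CPM over the 5 libraries, a description of 5 points that share their library totals. Gp2 was nearest to Dmbt1 at 0.28, to Klk1 at 0.30 and to the amylase gene Amy2b at 0.33. Zg16 was nearest to Clps, the pancreatic lipase cofactor, at 0.23, Cuzd1 to the carboxypeptidase Cpb1 at 0.28, and Klk1 to the ribosomal protein gene Rpl8 at 0.25. Sycn was nearest to Ndufs6, a respiratory chain subunit, at 0.35. Serpini2 was not eligible, with 3 counts in control 2.

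Erp27 was nearest to Pdia2, the pancreatic protein disulfide isomerase, at 0.26. For each 100 Pdia2 counts it had 37.1, 28.7 and 37.7 in the knockouts, against 39.4 and 24.9 in the controls, and the groups overlapped. Spink3 was nearest to Try5, a trypsinogen, at 0.32. For each 100 Try5 counts there were 3.21, 3.42 and 5.03 Spink3 counts in the knockouts, against 5.2 and 3.12 in the controls. Pdia2 and Try5 were picked for their likeness over these same libraries, so narrow ratios follow from that choice. Pdia3 had 104, 250.2 and 43.3 CPM in the knockouts, against 133 and 83.3 CPM in the controls.

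**Figure D5:**
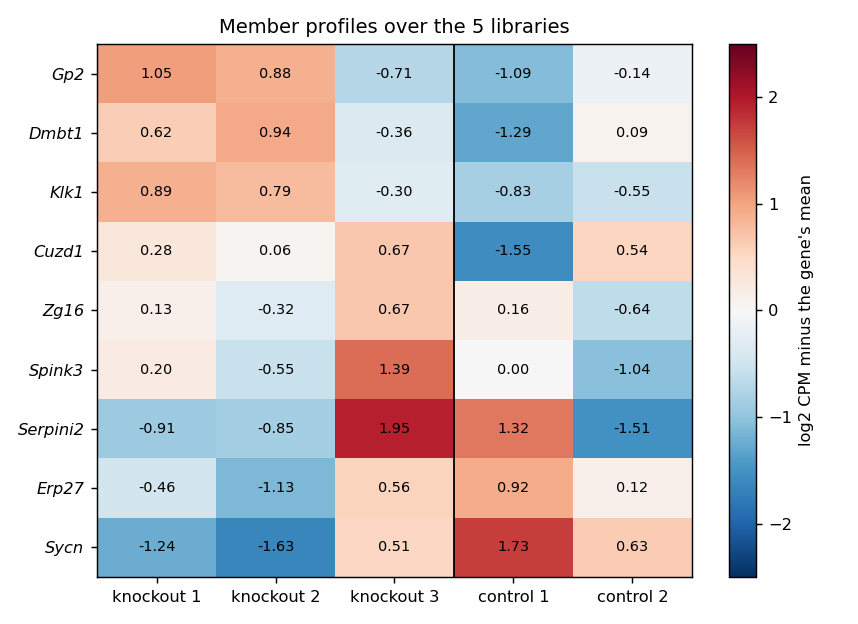
Log2 CPM of each member centred on its mean over the 5 libraries, knockouts left of controls. Gp2, Dmbt1 and Klk1 are highest in knockout libraries 1 and 2, and Sycn is highest in control 1 and lowest in knockout 2.

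The enzymes that the granule stores were counted from a list of 29 genes in the tables. Of 25 tested per library total, edgeR called 3 higher (Prss3, Try10 and Amy1) and 2 lower (Cela2a and Cel), with a median log2 fold change of 0.53 beside 0.22 for all tested genes. Cela2a, an elastase, had 7869, 9560.4 and 9341 CPM in the knockouts, against 41814 and 62814 CPM in the controls, and its log2 fold change of -2.55 was further from 0 than that of Sycn. Cel, the bile salt-activated lipase, had a log2 fold change of -2.28. The trypsinogens Prss3 and Try10 and the amylase Amy1 had log2 fold changes of 4.68, 3.70 and 6.68. These rested on 0 and 5, 16 and 11, and 1 and 0 counts in controls 1 and 2, and trypsinogen and amylase genes have near-identical copies whose reads the counting could split. Ctrb1 had 233072, 213667 and 165920.2 CPM in the knockouts, against 142711 and 139016 CPM in the controls, a log2 fold change of 0.54 ± 0.36 (SE, edgeR adjusted p = 0.537). Its groups did not overlap, with the knockouts higher, so counting relative to Ctrb1 lowers every gene in the knockouts against the controls. Try5 had 100169, 55918 and 145568 CPM in the knockouts, against 53826 and 43566 CPM in the controls, and every knockout lay above both controls. Cela3b, an elastase, had 50229, 36473 and 66705 CPM in the knockouts, against 86975 and 38858 CPM in the controls, with overlap.

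Of 23 tested genes for the granule membrane, exocytosis and secretagogue receptors, edgeR called 0 per library total, with 0 higher and 3 lower at an unadjusted p under 0.05. DESeq2 called 2 lower and limma-voom 0. Over all 8291 tested genes, 1072 had an unadjusted p under 0.05 with edgeR per library total. Over the same genes DESeq2 called 468 lower and 43 higher, and limma-voom 43 lower and 0 higher. Relative to Ctrb1, edgeR called 1 lower, Syt3, a calcium sensor of membrane fusion, which rested on 0 and 6 counts in the controls. Vamp8, the SNARE of the granule membrane that acts in fusion, had 259, 255 and 263 CPM in the knockouts, against 1111 and 236 CPM in the controls. Control 1 stood apart and control 2 lay just under the knockouts. Cckar, the receptor for cholecystokinin, had 122, 216 and 34.1 CPM in the knockouts, against 29.6 CPM in control 1 and no count in control 2. The list's median log2 fold change was -0.21 per library total and -0.74 relative to Ctrb1. Of 14 tested relatives of the members, edgeR called 0, with 3 higher at an unadjusted p under 0.05, DESeq2 called 1 higher and limma-voom 0.

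Markers of other cells and transcript length were measured beside these genes. The 12 duct markers summed to 757 to 5248 CPM in the knockouts and 930.5 to 1570.0 CPM in the controls, with Sox9, Cftr, Mmp7 and Car2 at 0 in both controls. Goblet and intestinal markers, whose cells also make Zg16, Dmbt1 and Gp2, summed to 23.9 to 115 CPM in the knockouts and 0.0 to 139 CPM in the controls, with Tff3, Clca3, Agr2 and Lgals4 at 0 in both controls. Transcript length was taken over the tested genes with a known length, without the members and Ctrb1. Of the counts of these genes, transcripts under 1000 bases took 53.6%, 38.7% and 62.9% in the knockouts, against 39.7% and 31.5% in the controls. The members under 1000 bases, Sycn, Zg16, Spink3 and Klk1, are therefore not in these shares. Islet markers summed to 180.3 to 985 CPM in the knockouts and 104 to 708 CPM in the controls, and macrophage markers to 66.4 to 316 CPM in the knockouts and 153 to 163 CPM in the controls. Stellate and fibroblast markers summed to 35.6 to 223 CPM in the knockouts, below the 267 to 306 CPM of the controls. These control sums rested on only 18 and 22 counts. Col1a2, Col3a1, Dcn, Pdgfra and Acta2 were at 0 in both controls, while all 9 markers had counts in the knockouts. Endothelial markers summed to 28.4 to 166 CPM in the knockouts and 0.0 to 97.2 CPM in the controls, lymphocyte markers to 12.4 to 60.0 CPM in the knockouts and 27.8 to 104 CPM in the controls, and the 5 red cell markers had no count in any library. The part of these measures in the members' differences was not tested. In bulk RNA, fewer cells and less RNA in each cell cannot be told apart.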

How the data were processed

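RNA-seq of primary acinar cells was analysed from the deposited whole-number read counts per gene symbol, 1 table per library with no normalization. Per the submitters' processing notes, the authors' tools were TopHat2 2.1.1, HTSeq 0.9.1, Cuffnorm 2.2.1.2 and Cuffdiff 2.2.1.5 with build mm9. The notes give no order. Annotation, strand setting and the handling of reads that match several genes are not stated in the sources used here.

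Groups came from the genotype labels. CPM used the total count less Rn45s and Lars2. In R 4.3.3, edgeR 4.0.16 fitted group alone (robust quasi-likelihood, two-sided, no TMM, filterByExpr) over 8291 genes, and again over 8290 with the Ctrb1 count as library size. Calls were at a Benjamini-Hochberg adjusted p under 0.05, and all 9 members passed the filter. The edgeR test gives no standard error, so its SE is the absolute log2 fold change divided by the square root of F. DESeq2 1.42.0, limma-voom (limma 3.58.1), other scalings and filters, the replicate number as a block and each library left out were the alternatives. The fits were tested on simulated counts, where few true changes were called. At a true log2 fold change of 2 or -2, 0% of changed genes were called on either scale. At -4, 14.3% were called per library total and 2.04% relative to Ctrb1, and at 4, 4% on each scale. Of unchanged genes 0% were called on either scale. Their median estimated log2 fold change was 0.133 per library total and 0.897 relative to Ctrb1. Genes with a true value of -2 had median estimates of -2.05 and -1.32. Estimates relative to Ctrb1 were thus too high in these counts. The rate of false calls in the real libraries was not tested. Intervals and floors (3 counts per library) cover counting error only.

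The members, lists, scaling and alternatives were chosen with earlier results of these data known. Named were all 9 members, 3 anchor and 3 check genes, the 3 most abundant enzymes, the called or 2 most abundant exocytosis genes, up to 4 relatives by count, Pdia2, Pdia3 and the genes nearest to each member. Called enzymes were named after their values were seen. Anchors Cpb1 and Pnlip served as alternative scales. Transcript lengths came from GENCODE M21. Mouse gene coordinates on mm9 and protein sequences were not used here.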

Additional observations from a re-analysis of the deposited data

How the results depend on the processing

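Over 16 alternatives, 118 of 143 member values per library total kept their direction and side of the threshold, and over 13 alternatives 93 of 116 relative to Ctrb1 did. For members not called above, this needed only the same sign and no call, so the size could still change. Zg16 went from 0.40 to 2.72 per library total under TMM factors without Rn45s and Lars2 and counted as kept. Serpini2 had no value at 10 counts in every library. The cause of each change was not tested.

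Per library total, 1 member was called in the analysis above. It was 0 under TMM (both forms), RLE and upper quartile factors, totals without enzymes, DESeq2 and limma-voom, and 5 under totals with Rn45s and Lars2 (Dmbt1, Gp2, Klk1, Spink3 and Zg16, all higher). Leaving out a library gave 0 to 1. Relative to Ctrb1 1 was called, against 0 relative to Cpb1 or Pnlip and with DESeq2 or limma-voom, and leaving out a library gave 0 to 1. Over all genes, lower calls ranged from 4 to 898 against 133, and higher calls from 0 to 149 against 16. Relative to Ctrb1, lower calls ranged from 6 to 1383 against 531, and higher calls from 0 to 33 against 17. The share of higher calls was therefore 16 of 149 in the analysis above, 147 higher with 71 lower under TMM without Rn45s and Lars2, and 149 higher with 19 lower under totals with both. The median over all genes ranged from -0.92 to 6.06 per library total.

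Log2 fold changes per library total turned for Sycn (0.75 and 0.81 under TMM with all genes and without Rn45s and Lars2, 0.45 under RLE, 0.48 under full totals) and for Erp27 (1.64, 1.70, 1.32, 1.51, and 0.01 under upper quartile factors). Leaving out a library gave -0.19 to 1.91 for Cuzd1 and -1.39 to 2.22 for Serpini2. Relative to Ctrb1, Pnlip as scale gave 1.32 for Zg16, 0.91 for Serpini2 and 0.15 for Erp27, and summed enzymes gave 0.16 for Zg16. Leaving out a library gave -0.57 to 0.37 for Zg16, -0.18 to 1.24 for Dmbt1, -0.68 to 1.45 for Cuzd1, -0.37 to 1.19 for Spink3 and -2.04 to 1.88 for Serpini2. For Sycn the call relative to Ctrb1 was lost without knockout 1 (-1.76), knockout 2 (-1.72) or control 1 (-1.48).

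The replicate numbers 1 and 2 are shared by the groups, but no label ties them to an animal or day. Replicate number 3 occurs only among the knockouts, so the block takes up knockout 3. The blocked comparison therefore rests on libraries 1 and 2 of each group and is close to leaving out knockout 3. Without knockout 3, Sycn stood at -2.70 per library total and -3.37 relative to Ctrb1. With the replicate block, 1 member was called on each scale: Sycn at -2.61 per library total (edgeR adjusted p = 0.00272, range over its alternatives 0.000578 to 0.866) and -3.28 relative to Ctrb1. Serpini2 turned to -0.93 per library total, and Cuzd1 to -0.01 and Spink3 to -0.32 relative to Ctrb1. Over all genes the block called 4 higher and 5 lower. Same-numbered libraries deviated with correlations of -0.0 and 0.07 across 133 genes. With 2 controls, their deviations from the group mean mirror each other. The different-numbered pairs of the same knockouts therefore gave the same values with the sign turned (0.0 and -0.07) and are no separate comparison.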
